A study of Drosophila melanogaster with 4 samples.

Results

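At 944 of the 7909 reproducible binding sites of exex in Drosophila melanogaster embryos (11.9%), a called region with a single summit lay at a divergent promoter. A divergent promoter is a stretch from which 2 genes are transcribed away from each other. The 944 peaks were chosen by position alone. The region had to be listed once in the authors' irreproducible discovery rate (IDR) list, and its summit, the base of highest signal, had to lie within 1000 bp of both transcription start sites (TSSs) of a head-to-head pair. Such a pair was a minus-strand protein-coding TSS to the left of a plus-strand protein-coding TSS of another gene, at most 1000 bp apart on dm6. The comparison peaks were 2761 other single-summit IDR peaks within 1000 bp of a protein-coding TSS (other promoter peaks) and 2939 single-summit IDR peaks farther away (distal peaks). The remaining 1265 IDR summits shared a called region with another summit.

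The study mapped exex, the fly homologue of HB9 (MNX1), by chromatin immunoprecipitation and sequencing with an anti-GFP antibody. The 4 biological replicates formed 1 group without a second condition: whole embryos collected at 6 to 24 h from a transgenic line in which GFP is joined to the C-terminal end of exex. Neither the insertion site nor the copy number or promoter of the transgene is given in the labels, the tagged protein is present beside any endogenous exex, and the cells in which a site was occupied cannot be told from whole embryos. No immunoprecipitation from flies without the GFP fusion was analysed here, so sites that such an experiment would also show cannot be told apart from exex sites.

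exex is a homeodomain protein of ventrally projecting motor neurons and of other cells of the embryo, and homeodomains of its kind bind short sequences with a TAAT core. Divergent promoters are common in the compact fly genome and often serve housekeeping genes, whose TSSs tend to be active in most cells. Many fly housekeeping promoters carry sequences bound by DREF (DNA replication-related element factor, TATCGAT within its site) or by M1BP (motif 1 binding protein, GTCACAC within its site), whereas GATA factors bind sequences with a GATA core such as CTTATC, read GATAAG on the other strand.

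The stretches between the TSSs of 8 such pairs are printed 5′ to 3′ on the plus strand of dm6 (RefSeq Release 6 sequence), so the left gene is transcribed to the left and the right gene to the right. The first 4 belong to the 12 peaks of highest signal, and the other 4 were added to show further motifs. Each of these 4 was the strongest, among the peaks considered and not yet chosen, with a given motif in a stretch that holds the summit and no annotated exon. Only part of the divergent promoter peaks was considered for printing. Stronger peaks outside that part can carry the same motif, as with CTTATC within 100 bp of the summit. Capitals mark, on either strand, the DREF sequence TATCGAT, the GATA factor sequence CTTATC, the homeodomain sequence TAATTA, the E-box CAGCTG and the M1BP sequence GTCACAC. Gaps of up to 300 bases are shown in full, and wider gaps within 100 bp of the summit.
Ugalt/eIF2Bbeta: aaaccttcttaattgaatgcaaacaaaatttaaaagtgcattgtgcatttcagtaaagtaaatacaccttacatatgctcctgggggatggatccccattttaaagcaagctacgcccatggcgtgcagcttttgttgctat
Art3/mRpS10: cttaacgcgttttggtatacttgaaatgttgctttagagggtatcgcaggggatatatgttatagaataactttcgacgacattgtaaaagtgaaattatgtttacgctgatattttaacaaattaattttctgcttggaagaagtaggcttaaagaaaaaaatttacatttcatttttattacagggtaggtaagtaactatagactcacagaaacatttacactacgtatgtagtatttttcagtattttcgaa
CG13390/CG17294: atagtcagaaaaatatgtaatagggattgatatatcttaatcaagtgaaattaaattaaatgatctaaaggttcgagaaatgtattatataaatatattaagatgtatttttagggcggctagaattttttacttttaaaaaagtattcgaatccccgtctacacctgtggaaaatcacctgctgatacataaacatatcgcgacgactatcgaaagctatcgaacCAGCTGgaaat
eIF4EHP/CG18428: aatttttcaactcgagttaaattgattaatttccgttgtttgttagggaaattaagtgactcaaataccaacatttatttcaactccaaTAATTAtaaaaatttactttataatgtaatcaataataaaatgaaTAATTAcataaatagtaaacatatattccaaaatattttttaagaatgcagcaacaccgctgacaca
Ing5/CG7099: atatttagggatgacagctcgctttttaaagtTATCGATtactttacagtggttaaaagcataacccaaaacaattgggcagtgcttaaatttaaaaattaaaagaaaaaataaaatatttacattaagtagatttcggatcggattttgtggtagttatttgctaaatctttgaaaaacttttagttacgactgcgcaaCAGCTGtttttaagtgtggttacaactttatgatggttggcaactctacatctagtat
CG7601/CIA30: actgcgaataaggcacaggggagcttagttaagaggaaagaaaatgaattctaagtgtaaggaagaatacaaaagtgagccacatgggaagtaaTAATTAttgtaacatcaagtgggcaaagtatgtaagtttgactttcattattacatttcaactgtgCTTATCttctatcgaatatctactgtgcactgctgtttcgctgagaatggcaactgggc
CG3437/CG3552: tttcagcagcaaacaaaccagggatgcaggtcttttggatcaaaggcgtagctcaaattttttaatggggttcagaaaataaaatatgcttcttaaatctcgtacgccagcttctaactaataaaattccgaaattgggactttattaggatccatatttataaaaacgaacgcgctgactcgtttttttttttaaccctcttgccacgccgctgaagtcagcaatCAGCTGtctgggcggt
CG13690/RpLP1: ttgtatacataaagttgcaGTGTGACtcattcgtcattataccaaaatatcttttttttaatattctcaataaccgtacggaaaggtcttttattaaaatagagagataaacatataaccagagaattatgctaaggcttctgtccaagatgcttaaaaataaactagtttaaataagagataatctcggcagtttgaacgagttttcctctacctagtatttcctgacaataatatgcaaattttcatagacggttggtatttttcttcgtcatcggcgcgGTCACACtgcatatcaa

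The Ugalt/eIF2Bbeta stretch lies at chrX:2703853-2703994, and the pair joins a UDP-galactose transporter to a subunit of the translation initiation factor eIF2B. Art3/mRpS10, a protein arginine methyltransferase gene beside a mitochondrial ribosomal protein gene, spans chr3R:15229409-15229664. CG13390/CG17294 spans chr2L:8376798-8377034. The eIF4EHP/CG18428 stretch, chr3R:24109099-24109299, belongs to the gene of a cap-binding repressor of translation, and it holds TAATTA at 2 places. Ing5/CG7099 (chr2L:13387313-13387570) holds TATCGAT and CAGCTG. CG7601/CIA30 (chr3R:29736746-29736964) holds CTTATC and TAATTA, and CG3437/CG3552 (chr3L:9457670-9457911) holds CAGCTG. In CG13690/RpLP1 (chr2L:419653-419951), the promoter of an acidic ribosomal stalk protein, GTCACAC occurs 2 times, once on each strand. Of the 944 peaks, 389 had none of these 5 sequences within 100 bp of the summit, 383 had 1 of them, 134 had 2, 35 had 3 and 3 had 4.

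Replicate 4 stood apart from the other libraries. Each replicate list held 30000 peaks, a fixed length, of which 12935, 11893, 13846 and 6947 had a q-value under 0.01 in replicates 1 to 4. Replicate 4 listed 496 peaks on chromosome 4, against 26, 28 and 60 in replicates 1 to 3. To keep lists of equal length, each replicate was represented by its 7909 peaks of highest signal, and the rule was applied to each list anew. It then found 890, 888 and 958 divergent promoter peaks in replicates 1 to 3 and 1450 in replicate 4. In replicate 4 this number of highest peaks exceeds the 6947 with q under 0.01, so some of them do not reach that q-value. No pair of replicates shared a peak of equal summit and signal, and read depth is unknown, since peak lists carry no counts of reads.

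Most summits sat between the TSSs, close to one of them. The median gap of the assigned pair was 319 bp, and the median distance to the nearer TSS was 100 bp, with quartiles of 51 and 144 bp. The summit lay between the TSSs at 607 of the 944 peaks (64.3%, 95% Wilson interval 61.2 to 67.3%), where intervals cover counting error only. By replicate, the shares were 60.7%, 59.7%, 63.6% and 65.5% in replicates 1 to 4, a mean of 62.4% ± 2.67 (SD, n = 4). Of the remaining summits, 239 lay in a non-coding part of an exon, 86 in an intron, 9 in a coding exon and 3 outside genes. Neither direction was preferred beyond counting error, with 487 summits nearer to the plus-strand TSS and 452 nearer to the minus-strand TSS (51.6%, 48.4 to 54.8%, for the plus strand).

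The position varied with the width of the gap. The summit lay inside 68 of 202 gaps of 1 to 200 bp (33.7%), inside 385 of 511 gaps above that and up to 500 bp (75.3%) and inside 154 of 231 wider gaps (66.7%). A narrow gap offers fewer bases, so these shares are descriptions of where summits fell and not of preference. In replicates 1 to 3 the replicate summit stayed near the IDR summit, within 50 bp at 77.5%, 81.2% and 82.6% of the overlapped peaks. Replicate 4 placed 69.0% within 50 bp. The plot of summits against the TSSs shows the funnel that the widening gap draws.

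**Figure D1:**
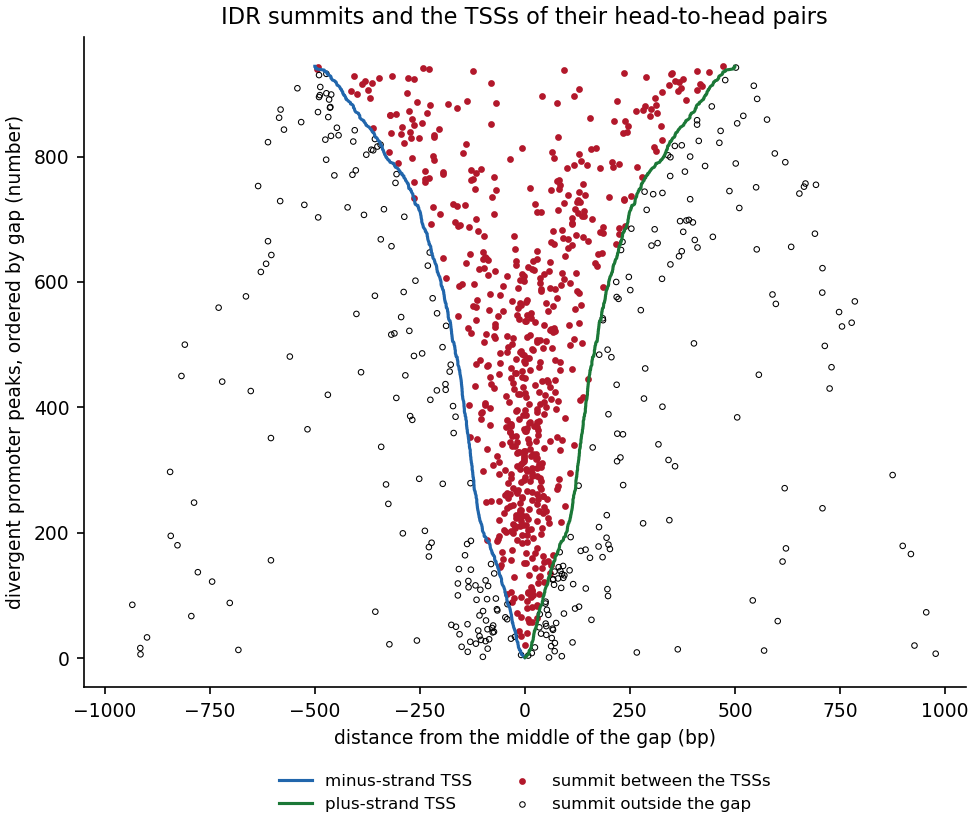
Position of each of the 944 IDR summits (x axis, bp from the middle of the gap) with peaks ordered by gap from bottom to top. Lines mark the minus-strand and plus-strand TSS, filled points are the 607 summits between the TSSs and open points the summits outside the gap.

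The strongest of these peaks were found in every library. All 12 of highest signal were overlapped by the highest peaks of all 4 replicates, and they ranked between 27 and 198 in the IDR list. Because IDR filtering drew on all 4 replicates, such overlap is largely built in for peaks of this rank. It is no separate evidence of reproducibility, and peaks of like rank in the other classes were not set beside them. The peak at mRpL41/CG8079, beside a mitochondrial large-subunit ribosomal protein gene, was the strongest, with ranks of 25, 31, 60 and 10 in replicates 1 to 4. Ugalt/eIF2Bbeta had ranks of 30, 21, 95 and 15. CG18746/CG10086 followed with ranks of 56, 149, 86 and 119, and its summit lay in an intron, 329 bp past the plus-strand TSS. Art3/mRpS10 had ranks of 88, 98, 211 and 77, so replicate 3 placed it lowest, as it did the first pair and Ugalt/eIF2Bbeta.

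The other pairs of the 12 held genes of varied function. mRpS23, for a mitochondrial small-subunit ribosomal protein, shares its promoter with CenG1A, for a GTPase-activating protein of Arf GTPases, and that peak had ranks of 115, 80, 305 and 326. eIF4EHP/CG18428 had ranks of 331, 100, 171 and 301. Replicate 4 placed mRpS23/CenG1A lower than the others did. At CG14615/tilB, where tilB is needed for motile cilia, the ranks were 105, 164, 135 and 85, and the summit lay in a non-coding part of an exon. Pdrg1/Pal1, which joins a prefoldin-related gene to that of a peptide-amidating lyase, had ranks of 366, 187, 200 and 29, and CG13390/CG17294 had 136, 102, 202 and 293. The pairs CG11309/CG7632 and CG10413/CG31789, named only by number, had ranks of 233, 153, 267 and 79 and of 225, 204, 157 and 627.

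As a class, however, divergent promoter peaks were somewhat weaker than other promoter peaks. Their median signal rank in the replicate lists, as a percentage of the list with 0 for the strongest, was 57.8, 54.5, 59.1 and 50.7 in replicates 1 to 4, against 50.5, 51.1, 54.3 and 48.5 for other promoter peaks. The divergent promoter peaks ranked lower in signal in 4 of 4 replicates, by a mean of 4.42 ± 2.17 percentage points (SD, n = 4; exact two-sided sign-flip permutation test over replicates, p = 0.125). With 4 replicates 0.125 is the smallest p this test can give, so it cannot pass 0.05. With 1 TSS per gene the difference was 2.87 ± 2.31 points (exact test, p = 0.25). Against distal peaks, with medians of 51.3, 54.0, 54.1 and 52.2, the difference of 2.63 ± 3.75 points was within the spread between replicates and had the opposite sign in replicate 4.

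How often a replicate found the divergent promoter peaks of the IDR list differed in order between libraries. Over the whole IDR list, 65.3% of peaks were found among the highest peaks of all 4 replicates. Of the divergent promoter peaks 518 of 944 were (54.9%), against 1663 of 2761 other promoter peaks (60.2%) and 1729 of 2939 distal peaks (58.8%). Replicates 1 to 4 found 76.6%, 79.9%, 86.9% and 87.3% of the divergent promoter peaks, against 87.0%, 84.9%, 89.2% and 78.2% of the other promoter peaks and 89.9%, 88.8%, 87.6% and 71.3% of the distal peaks. Divergent promoter peaks were thus lowest in replicates 1 to 3 and highest in replicate 4. The mean difference from other promoter peaks was -2.15 ± 8.19 percentage points (SD, n = 4; exact two-sided sign-flip permutation test, p = 0.625), and it was 0.587 points without replicate 1. The highest peaks of each of replicates 1 to 3 overlapped 565 of the 944. The IDR list was made from these replicates, so finding its peaks in them is no independent measure. The plot of peaks by replicate shows both the larger number in replicate 4 and the turned order.

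**Figure D2:**
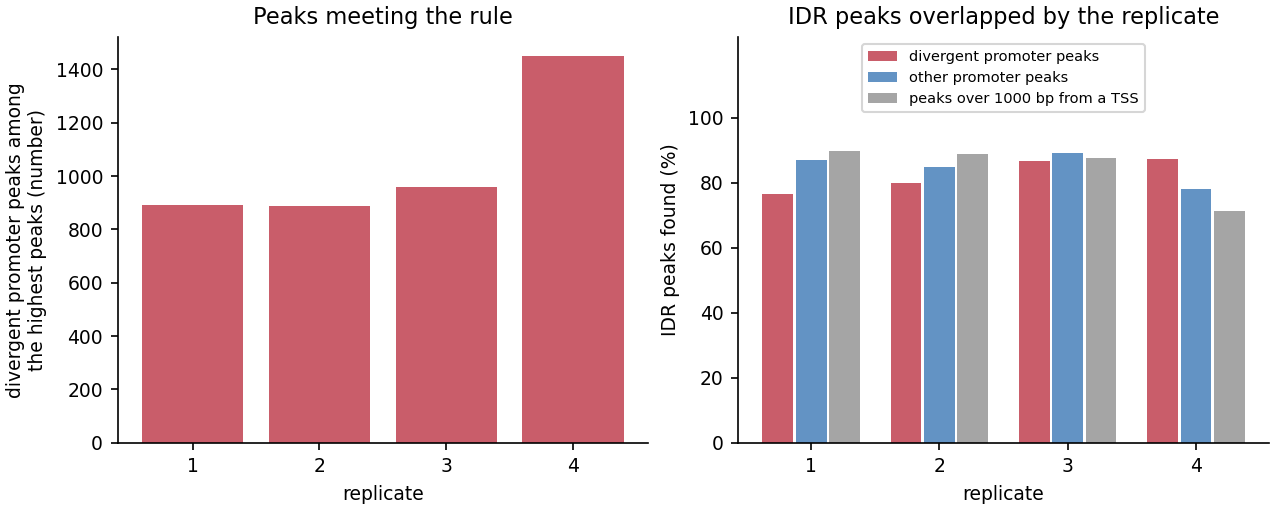
Left, divergent promoter peaks among the highest peaks of each replicate, 890, 888, 958 and 1450. Right, percentage of IDR peaks found among the highest peaks of each replicate for divergent promoter, other promoter and distal peaks, where replicate 4 has the order 87.3%, 78.2% and 71.3%.

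Sequence composition set these summits apart from their surroundings. The median GC content within 100 bp of the summit was 36.3% at divergent promoter peaks, against 39.3% at other promoter peaks and 38.8% at distal peaks. It was lower than at other promoter peaks in 4 of 4 replicates, by a mean of -2.99 ± 0.704 points (SD, n = 4; exact two-sided sign-flip permutation test, p = 0.125), and by -4.85 ± 0.626 points against other promoter peaks within 200 bp of a TSS. In windows of the same size centred 1000 bp to the right or left, the median was 47.8%, and 53.6% of those windows were centred in a coding exon, against 1.06% of the summits. Base composition and coding sequence therefore move with every comparison between summit and flank given here, and their part in the motif results was not tested.

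TAATTA, the homeodomain sequence, was more frequent at the summits than beside them and somewhat more frequent than at other promoters. It lay within 100 bp of 213 of the 944 summits (22.6%, 20 to 25.3%), against 9.53% of the flanks (exact two-sided McNemar test over peaks, p = 1.76e-14), where peaks are not replicates of a condition. The excess over the flanks, 13.0 points, was 20.8 points in the stronger 50% of the IDR list. In the replicate lists the share was 20.4%, 23.1%, 24.8% and 20.6%, against 17.3%, 19.3%, 18.5% and 16.4% at other promoter peaks and 18.4%, 20.5%, 20.4% and 16.7% at distal peaks. The excess over other promoter peaks held in 4 of 4 replicates, with a mean of 4.39 ± 1.39 points (SD, n = 4; exact two-sided sign-flip permutation test, p = 0.125). Within 50 bp of the summit the excess was 2.27 ± 0.546 points. In the IDR list TAATTA lay at 22.6% of divergent promoter and 18.3% of other promoter summits. TTAAAA, a plain A and T word, lay at 50% and 34.7%. The part of base composition in the TAATTA excess over other promoter peaks was not tested. Among the divergent promoter peaks, TAATTA was found at 84 of the 315 of highest signal (26.7%), at 69 of the next 315 (21.9%) and at 60 of the 314 of lowest signal (19.1%). Of the 12 strongest, 5 had it.

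CTTATC, the GATA factor sequence, was scarcer at divergent promoter peaks than at the other sites, although it still exceeded the flanks. It lay at 190 of the 944 summits (20.1%), against 33.4% of other promoter summits and 39.1% of distal summits. The replicate shares were 24.3%, 20.9%, 19.7% and 19.0%, against 35.2%, 30.8%, 31.8% and 31.8% at other promoter peaks. The groups did not overlap, and the mean difference was -11.4 ± 1.25 points (SD, n = 4; exact two-sided sign-flip permutation test, p = 0.125). When the other promoter peaks were limited to those within 200 bp of a TSS, the difference was -7.27 ± 1.60 points, and within 50 bp of the summit it was -7.51 ± 0.981 points. At the flanks of divergent promoter peaks the share was 11.5% (exact two-sided McNemar test, p = 1.76e-07). The excess over the flanks, 8.58 points, was 13.6 points among the peaks found in each of replicates 1, 3 and 4 and 14.7 points among those found in each of replicates 1 to 3.

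The DREF sequence TATCGAT showed the reverse order, being most frequent at divergent promoter peaks. It was present at 167 of the 944 summits (17.7%, 15.4 to 20.3%), against 8.15% of other promoter summits and 3.44% of distal summits. Replicates 1 to 4 had 17.6%, 14.8%, 15.4% and 17.4% at divergent promoter peaks, against 8.18%, 6.11%, 7.63% and 7.09% at other promoter peaks. Every replicate of the first class lay above every replicate of the second, with a mean difference of 9.07 ± 1.09 points (SD, n = 4; exact two-sided sign-flip permutation test, p = 0.125). Against other promoter peaks within 200 bp of a TSS it was 4.49 ± 1.60 points, and within 50 bp of the summit it was 4.24 ± 1.25 points, each with p = 0.125 in the same exact test. The flanks held TATCGAT in 2.12% of windows (exact two-sided McNemar test, p = 2.50e-32).

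TATCGAT did not mark the strongest divergent promoter peaks. It was found at 37 of the 315 of highest signal (11.7%, 8.64 to 15.8%), against 65 of the next 315 (20.6%) and 65 of the 314 of lowest signal (20.7%, 16.6 to 25.5%). None of the 12 strongest had it, a count of 0 that allows a share of up to 25%. The share was 25.7% where the gap was 1 to 200 bp, 16.6% for gaps above that and up to 500 bp and 13.0% for wider gaps. Summits between the TSSs had it in 22.1% of cases, against 9.79% of summits outside the gap. The nearest copy lay a median of 53 bp from the summit, against 43.5 bp for TAATTA and 42.5 bp for CTTATC at these peaks. CTTATC was found at 29.3% of the peaks with TATCGAT, against 18.1% of those without. The last letters of CTTATC and the first of TATCGAT can be the same bases, so the co-occurrence counts sites that overlap.

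Further promoter sequences were also more frequent at divergent promoter peaks. GTCACAC, the M1BP sequence, lay at 5.61% of divergent promoter summits, against 3.15% of other promoter summits, 1.77% of distal summits and 1.59% of the flanks (exact two-sided McNemar test against the flanks, p = 1.88e-06; p = 0.0801 within 50 bp). CAGCTG, an E-box, lay at 15.4%, against 9.92% and 6.87% of the other promoter and distal summits. Its excess over the flanks, 3.71 points (exact two-sided McNemar test, p = 0.0185), was -0.236 points among those in the stronger 50% of the IDR list and lost the call within 50 bp. The call was also lost when a peak had to be found in all replicates except a given 1, which kept 554 to 610 peaks. In the replicates, the difference from other promoter peaks was 3.24 ± 0.340 points for GTCACAC and 5.08 ± 0.671 points for CAGCTG (SD, n = 4; exact two-sided sign-flip permutation test, p = 0.125 for each). Against other promoter peaks within 200 bp of a TSS these were 1.11 ± 0.529 and 1.75 ± 0.791 points.

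TATAAA, the core of the TATA box but also a plain A and T word, lay at 36.1% of divergent promoter summits, against 28.3% of other promoter, 27.8% of distal summits and 14.9% of the flanks. GAGAGAG, bound by GAGA factor, was rare at divergent promoters, with 1.59%, against 6.56% of other promoter and 3.54% of distal summits. Its difference from other promoter peaks was -4.25 ± 0.189 points (SD, n = 4; exact two-sided sign-flip permutation test, p = 0.125), below 0 in 4 of 4 replicates, and -1.08 ± 0.245 points within 50 bp of the summit. CACGTG, another E-box, differed from other promoter peaks by -0.0473 ± 0.233 points (SD, n = 4), within the spread between replicates. The difference was -0.875 ± 0.299 points in the stronger 50% of each list and -0.339 ± 0.233 points against other promoter peaks within 200 bp of a TSS, below 0 in 4 of 4 replicates in both settings (exact two-sided sign-flip permutation test, p = 0.125 for each). CAGGTAG, bound by the early activator Zelda, lay at 5 of the 944 summits (0.530%), against 0.543% of other promoter and 0.851% of distal summits. The shares in the 4 replicates are drawn for 7 of these sequences.

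**Figure D3:**
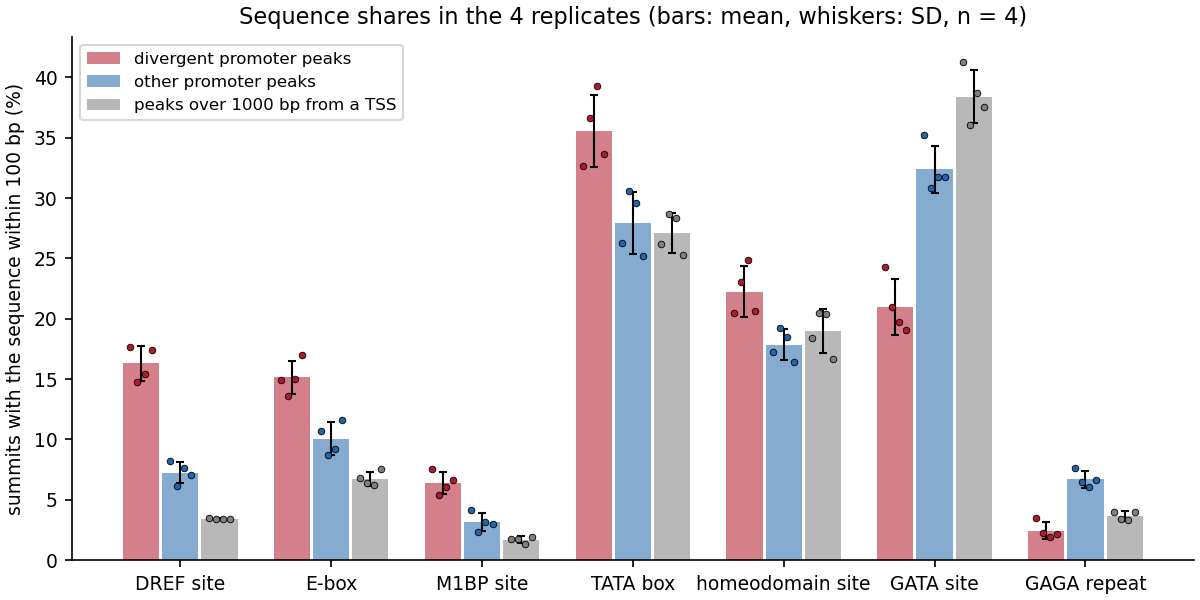
Percentage of summits with each sequence within 100 bp on either strand at divergent promoter, other promoter and distal peaks. Bars are means, whiskers SDs and points the 4 replicates. The DREF site is TATCGAT, at 16.3% ± 1.44 of divergent promoter, 7.25% ± 0.880 of other promoter and 3.44% ± 0.0481 of distal peaks.

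The profiles along the DNA show where the classes part. At divergent promoter peaks the DREF site stayed above the level of other promoter peaks over a broad stretch to either side of the summit, while the GATA site formed a lower version of the peak seen in the other classes. The homeodomain site was most frequent next to the summit in all 3 classes, and around divergent promoter peaks its maximum was broader and the level farther out was lower than in the other classes. These are descriptions over all peaks of a class, with no test.

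**Figure D4:**
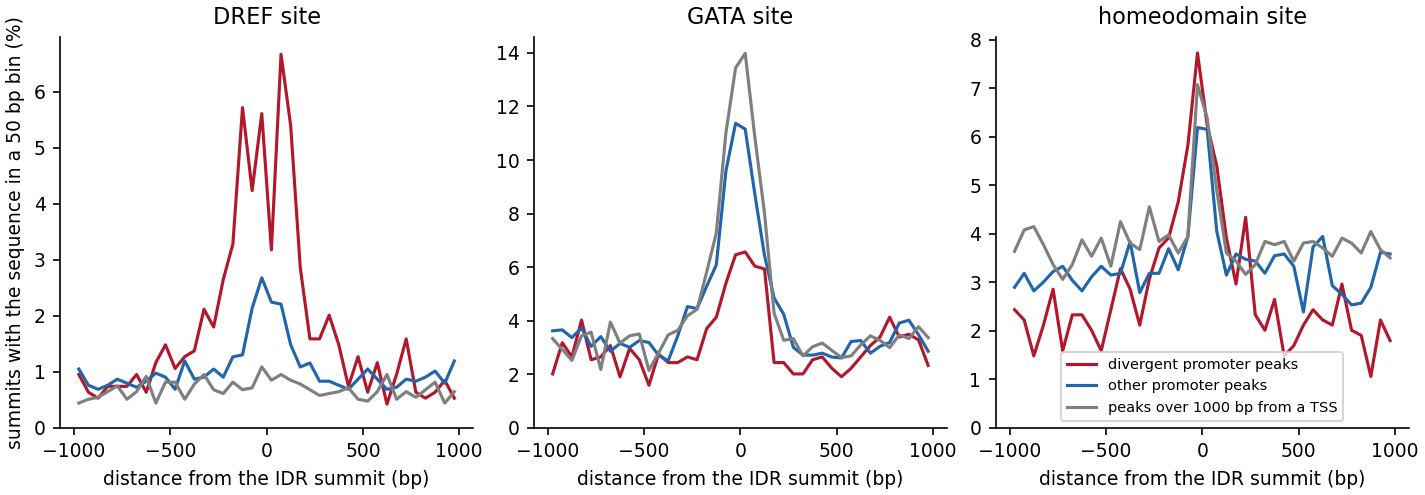
Percentage of IDR summits with the DREF, GATA and homeodomain site in bins of 50 bp (y axis) against distance from the summit in bp (x axis), for 944 divergent promoter, 2761 other promoter and 2939 distal peaks.

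A scan of all sequences of 6 bp, each counted with its reverse complement, gave the wider picture at the same 944 summits. At a Benjamini-Hochberg adjusted p under 0.05 (exact McNemar tests), 366 were more frequent at summits than at flanks (17.6% of those tested) and 682 were less frequent (32.8%), and 1161 had an unadjusted p under 0.05. All 36 made only of A and T were among the more frequent, led by AAATTA at 47.9% of summits, against 16% of flanks. The most significant with G or C was TATCGA, part of the DREF sequence, ranked 10, at 26.7%, against 6.46%. It lay at 15.8% of other promoter and 10.6% of distal summits. TAATTA ranked 70, at 22.6% of summits, against 9.53% of flanks. Among the less frequent, the most significant was CTCCTC, at 2.22% of summits, against 17.9% of flanks. Of the more frequent, 358 had the same sign in the 4 replicates, and of the less frequent 671.

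Divergent promoters with a peak (bound pairs) could be set beside those without one (unbound pairs). The annotation held 2667 head-to-head gene pairs, with 5052 of 13945 protein-coding genes (36.2%). A divergent promoter peak of the IDR list lay at 900 of the pairs, 33.7%, another 44 had only a summit of a region with several summits, and 1723 had neither. In the replicates, 31.8%, 30.7%, 34.3% and 47.6% of the pairs were bound, a mean of 36.1% ± 7.82 (SD, n = 4), and 32.3% ± 1.83 without replicate 4. When each replicate was represented by all its peaks with q under 0.01, lists of unequal length, the mean was 43.8% ± 3.41. The share was 31.2% for gaps of 1 to 200 bp, 39.0% for gaps above that and up to 500 bp (36.2 to 41.7%) and 27.4% for wider gaps (24.1 to 30.9%). By chromosome arm it was highest on 2L with 38.5% and, of the 5 large arms, lowest on X with 25.6% (21.5 to 30.0%).

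A gene in a head-to-head pair had a promoter peak more often than another gene. A single-summit IDR peak lay within 1000 bp of a TSS of 1915 of 5052 genes in pairs (37.9%), against 1796 of 8893 other genes (20.2%). Replicates 1 to 4 gave 36.4%, 35.2%, 38.0% and 51.0% for genes in pairs, against 21.5%, 19.4%, 19.6% and 21.3% for other genes. The difference was 19.7 ± 6.79 points (SD, n = 4; exact two-sided sign-flip permutation test, p = 0.125) and was largest in replicate 4. A peak at a pair counts for both of its genes, so part or all of this difference can come with the counting. How much does was not tested.

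The DREF sequence was frequent at bound and at unbound divergent promoters, with a small excess at the bound ones. Within 100 bp of the middle of the gap, a position that does not depend on any peak, TATCGAT lay at 178 of 900 pairs with a divergent promoter peak (19.8%), against 272 of 1723 pairs without any summit (15.8%), a difference of 3.99 points (95% Newcombe interval 0.935 to 7.18). The share at unbound pairs was above the 8.15% found at other promoter summits, although those are peak summits up to 1000 bp from a TSS and so not like positions. TAATTA lay at 25.1%, against 20.3% (difference 4.86 points, 1.5 to 8.31), CTTATC at 15.8%, against 12.4% (3.42 points, 0.644 to 6.34), and CAGCTG at 15.6%, against 11.3% (4.30 points, 1.57 to 7.18). GTCACAC went the other way, with 4.78% of the bound and 7.37% of the unbound pairs (-2.59 points, -4.39 to -0.631). Median GC content there was 31.8% at bound pairs, against 33.8% at unbound pairs, and its part in the differences was not tested.

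The same comparison in the replicates, where all pairs without a divergent promoter peak formed the second group, kept these signs in 4 of 4 replicates. The mean difference was 5.15 ± 1.92 points for TAATTA, 2.52 ± 0.928 for TATCGAT, 2.15 ± 1.52 for CTTATC, 3.14 ± 1.77 for CAGCTG and -2.59 ± 0.313 for GTCACAC (SD, n = 4; exact two-sided sign-flip permutation test, p = 0.125 for each). For TATCGAT, replicates 1 to 4 had 19.7%, 19.3%, 18.6% and 18.0% of bound pairs, against 16.1%, 16.3%, 16.5% and 16.5% of the pairs without a peak.

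Ribosomal protein genes had bound divergent promoters more often than the average pair. Against the 33.7% of all pairs, the IDR list had a divergent promoter peak at 38 of 58 pairs with a cytosolic ribosomal protein gene (65.5%, 52.7 to 76.4%). The replicates had 72.4%, 58.6%, 58.6% and 82.8% of these pairs, each above the share of all pairs in the same replicate. RpL34b/CG8132 and RpS27/Nup37, where Nup37 codes for a nucleoporin, were the strongest, with IDR ranks of 685 and 999 and all 4 replicates. Mitochondrial ribosomal protein genes, 58 of 73 of which lie in head-to-head pairs, had 33 of 60 pairs bound (55%, 42.5 to 66.9%), with 43.3%, 46.7%, 48.3% and 61.7% in the replicates. Their strongest peaks were mRpL41/CG8079 and Art3/mRpS10.

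Genes of the transcription machinery followed. Pairs with a Mediator, TFIID or general transcription factor gene were bound in 20 of 38 cases (52.6%, 37.3 to 67.5%), with MED30/Rev1 and MED19/CG7430 at IDR ranks of 1419 and 1840. The replicates had 39.5%, 39.5%, 44.7% and 55.3% of these pairs. Of 7 pairs with a gene of mitochondrial protein import 6 were bound (85.7%, 48.7 to 97.4%), the strongest at CG8229/Tom7 and Tim10/Ppcdc, and the replicates had 42.9%, 85.7%, 71.4% and 85.7%. For aminoacyl-tRNA synthetases it was 11 of 27 (40.7%, 24.5 to 59.3%), with Lfg/AspRS and TrpRS/Vps16A as the strongest, an interval that includes the share of all pairs.

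Other housekeeping groups lay near or below the share of all pairs. Oxidative phosphorylation genes had 15 of 49 pairs bound (30.6%), led by ND-ASHI/Fum1 and ND-51/CG13994 of complex I, and vacuolar proton ATPase genes 5 of 14 (35.7%), led by CG8187/Vha36-1 and Vha100-2/Vti1b. Proteasome genes had 7 of 27 (25.9%), led by kat80/Prosalpha4 and Rpn13/CtsL1. Spliceosome and Sm protein genes had 3 of 29 (10.3%, 3.58 to 26.4%), with Oda/SmD3, which joins ornithine decarboxylase antizyme to a core snRNP protein, at rank 215 and snRNP-U1-C/gukh at rank 4539. Their replicate shares were 17.2%, 6.90%, 17.2% and 31.0%, each below the share of all pairs in that replicate. DNA replication genes had 2 of 18 pairs bound (11.1%, 3.10 to 32.8%), CG13933/PolD2 and RfC38/CG4751, and no peak in the complete lists of replicates 1 and 2 overlapped the RfC38/CG4751 peak.

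Of 179 chemoreceptor genes 26 lay in head-to-head pairs, and 2 of their 24 pairs were bound, CG11594/Gr64a at rank 438 and Letm1/Ir60b at rank 7297. Of 135 cuticle protein genes 10 lay in such pairs, with 0 of 7 pairs bound, a count of 0 that allows a share of up to 42.9%. Glutathione transferase genes, of which 7 of 35 lay in pairs, had 1 of 6 pairs bound, GstE10/GstE1, with summits ranked 1979 and 5348. Serine proteases of the gut, of which 8 of 27 genes lay in pairs, had 3 of 7, led by CG13202/iotaTry and Jon25Bi/Marcal1. None of the 9 motor neuron transcription factor genes, exex among them, lay in a head-to-head pair. Pairs with a gene known only by a CG number were bound in 483 of 1449 cases (33.3%), the share of all pairs. The groups share pairs where the genes of a pair belong to different groups, and no test was made of the group shares.

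**Figure D5:**
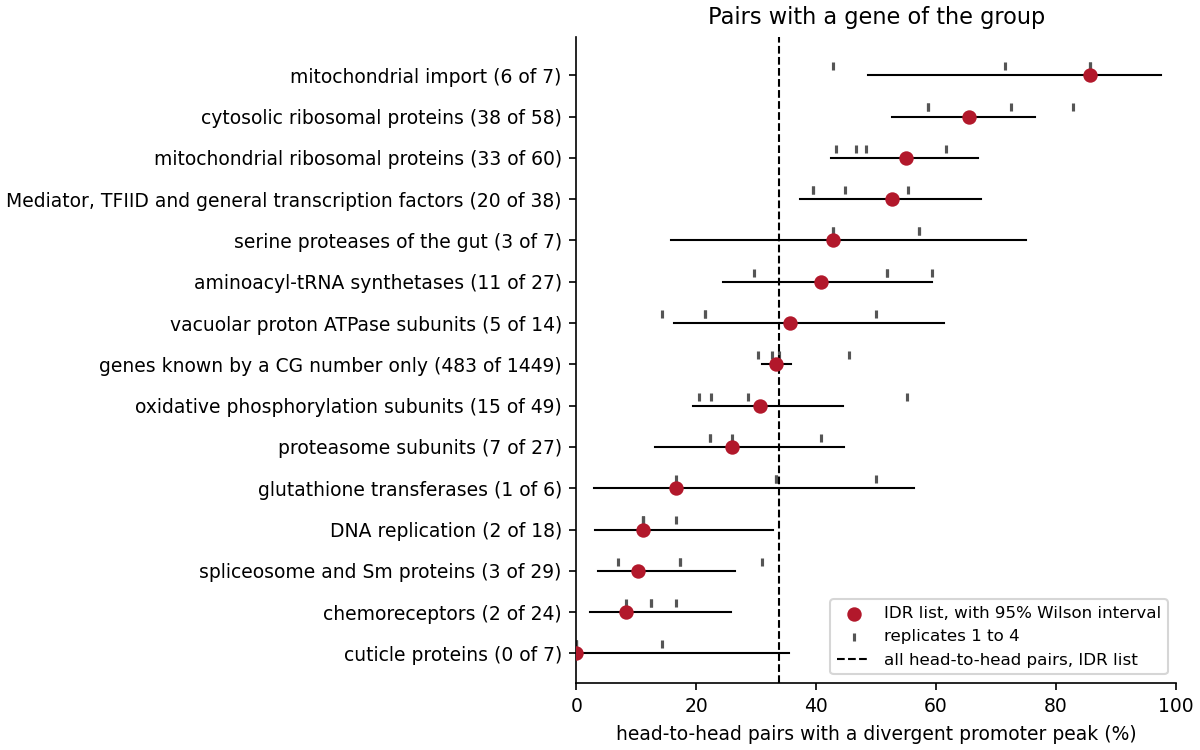
Percentage of head-to-head pairs with a divergent promoter peak (x axis) for pairs with a gene of each group (y axis, bound pairs of all pairs in parentheses). Red points are the IDR list with 95% Wilson intervals for counting error, ticks the 4 replicates and the dashed line all pairs in the IDR list, 33.7%.

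The 944 peaks were assigned to 836 distinct gene pairs with 1660 genes, 105 of which pairs had more than 1 such peak, so neighbouring peaks share a promoter. The called interval of 833 of them overlapped no other IDR interval, and 13 had more than 1 summit in the pooled list. At the limits of the rule, RpS7/Anp had a gap of 1000 bp and IDR rank 4826 just inside, and PMCA/Hcf a gap of 1021 bp and rank 7046 just outside. For the distance to the farther TSS, CG34034/CG5849 with 1000 bp and rank 5880 was just inside and CG10949/Arpc2 with 1001 bp and rank 5538 just outside.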

How the data were processed

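The authors deposited narrowPeak lists on dm6: 1 per replicate, 1 of the replicates pooled and 1 after IDR filtering. Chromatin fragments were of 200 to 800 bp per the labels. How reads were aligned, how peaks were called and which IDR threshold was used is not given in the sources used here. Each deposited signal value is a score and served only to rank peaks. The deposited q-value is on a −log10 scale and served to count peaks with q under 0.01. The possible control experiment named in the labels was not analysed here. No column of other samples was used.

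TSSs came from Ensembl release 115 (BDGP 6.54) and sequence from RefSeq Release 6. Of the TSS pairs that met the rule for a peak, the pair with the smallest summed distance to the summit was assigned, then that with the smallest gap. The gaps and summit positions given depend in part on this choice. Sequences were searched on both strands in windows of 201 bp. Summits and flanks were compared by exact McNemar tests over peaks, whose p-values describe these peaks and not replicates. Classes were compared over the 4 replicates by exact two-sided sign-flip tests. Nothing beyond the labels tells whether the replicates came from separate cultures of flies, so their spread may be partly technical. Wilson and Newcombe intervals of 95% cover counting error only. The 6 bp scan was tested on simulated data of 944 windows: a sequence planted in 10% of them was called in 19 of 20 runs, and 0 of 20 runs with nothing planted had a call. Both simulated sets were random genome windows, without the difference in GC content and coding sequence between real summits and flanks. The runs therefore do not cover calls that come with that difference. The members, gene groups and sequences were chosen with earlier results of these data known. The peaks named are the 12 of highest signal, the 2 strongest of each gene group and the pairs at the limits of the rule. Of the 12, 1 is not reported here by name. Further sequences were printed to show a motif. Alternatives were other TSS, gap, distance, window, flank, overlap and signal limits and leaving out each replicate. For summits against flanks, which use the IDR list, leaving out a replicate meant keeping the peaks found in all the others. Tests used scipy 1.17.1 with pandas 2.3.3 and numpy 2.4.6 in Python 3.11.15, and plots matplotlib 3.10.9.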

Additional observations from a re-analysis of the deposited data

Results flagged for a closer look

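Of 122 measures compared over the 4 replicates, 10 had 1 replicate far from the other 3. A chance rate of about 1 in 20 assumes independent measures. Many of these share peaks or pairs, so the number cannot be set against that rate. Replicate 4 was the one apart in 7 of the 10. It held 1450 divergent promoter peaks among its highest peaks, against 888 to 958 in the other replicates. It overlapped 71.3% of the distal IDR peaks with its highest peaks, against 87.6 to 89.9%, and 95.9% with its complete list, against 99.1 to 99.3%. Replicate 4 also had fewer peaks with q under 0.01, and the part of that in these values was not tested.

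At the middle of the gap of pairs without a divergent promoter peak, replicate 4 had GAGAGAG at 3.44%, against 2.60 to 2.74%, and TATAAA at 37.5%, against 38.9 to 39.1%. It had 16.7% of the pairs with a DNA replication gene bound, against 11.1% in each of the others, and 14.3% of the pairs with a cuticle protein gene, against 0 in each of the others. In both groups 1 pair makes up the difference.

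For CAGGTAG, replicate 1 had 0.676% of the other promoter peaks, against 0.803 to 0.825%, and replicate 2 had a difference between divergent promoter summits and flanks of -1.46 points, against -0.835 to -0.787 points. For GTCACAC at the middle of the gap, bound minus unbound pairs gave -3.06 points in replicate 1, against -2.49 to -2.39 points.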

How the results depend on the processing

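No paired analysis was possible because all 4 replicates belong to 1 group, so no replicate number is shared between groups. Classes of peaks were compared within each replicate. Of 250 alternative values, 227 were counted as the same. Tested differences had to keep their direction and their side of 0.05, means to stay within the spread, and counts within a fixed fold range. The exact test over replicates cannot pass 0.05, so there only a change of sign could count as a change. Sizes could still change, as where the TATCGAT excess over other promoter peaks went from 9.07 to 4.24 points within 50 bp. The number of divergent promoter peaks was 423 in the stronger 50% of the IDR list and 565 when the highest peaks of each of replicates 1 to 3 had to overlap them, a setting chosen after seeing the data. Both use fewer peaks by construction. The mean share of summits between the TSSs was 56.7% with 1 TSS per gene and 57.4% with gaps of at most 500 bp, against 62.4%. The mean share of peaks found in a replicate, 82.7%, was 64.3% with a reciprocal overlap of 50%, 75.8% with summits within 100 bp, 95.3% in the complete lists and 96.1% for the stronger 50% of the list. Its difference from other promoter peaks ranged from -5.89 to 0.587 points when 1 replicate was left out. CAGCTG against the flanks was -0.236 points in the stronger 50% of the list and 0.636 points within 50 bp. Among peaks found in all replicates except a given 1 it was 0.516 to 2.17 points. CACGTG, which was not called, ranged from -0.344 to 0.177 points against the flanks among peaks found in all replicates except a given 1. Against other promoter peaks it ranged from -0.140 to 0.0388 points when 1 replicate was left out. Among peaks that overlap no other IDR interval it was 0.12 points against the flanks. The cause was not tested. Read depth is unknown, and with 4 replicates no difference between classes can pass 0.05 in the exact test.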
